A study of Mus musculus with 8 samples.

Results

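The medial ganglionic eminence (MGE) is the ventral forebrain swelling that gives rise to many cortical and striatal interneurons. It was compared between WT mouse embryos and embryos with a conditional knockout of Nkx2-1 (Nkx2-1cKO). The genes examined were the SOX genes of groups B, C and D. The set was listed by name and held 10 genes. These were Sox1, Sox2 and Sox3 of group B1, Sox21 of group B2, Sox4, Sox11 and Sox12 of group C, and Sox5, Sox6 and Sox13 of group D. By the accession of the array design, 9 of the 10 were matched to at least 1 probe, out of 17174 gene symbols matched on the array, and no probe was matched to Sox3. The 9 genes were measured by 14 probes, 4 for Sox6, 3 for Sox11 and 1 for each of the others. All 14 were well above background on all 8 arrays.

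RNA from microdissected MGE of C57BL/6 mouse embryos at embryonic day 13.5 (E13.5) was hybridised to 1-colour Agilent whole mouse genome arrays, with 4 WT and 4 Nkx2-1cKO samples. The labels give the WT samples as Nkx2-1flox/+;Olig2tva-cre- and the mutant samples as Nkx2-1flox/+;Olig2tva-cre+, so all 8 carry a floxed Nkx2-1 allele and differ by the Cre. The labelled genotype has 1 floxed allele, whereas the methods of the study name an Nkx2-1f/f strain without tying it to the arrays. The Cre is tied to Olig2, a progenitor gene of the ventral forebrain, so recombination is limited to cells with a history of Olig2 expression. By the labels only the mutant samples carry it, so an effect of the Cre allele itself cannot be told apart from that of Nkx2-1 loss. Nothing in the labels says whether samples were single embryos or pools, and p-values measure only the spread between these samples. Signals are given as log2 of the background-subtracted intensity after division by the array's 75th percentile. Their levels cannot be compared between probes, and only changes are compared between genes. In such tissue samples, fewer cells of a type and less RNA per cell cannot be told apart.

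Nkx2-1 itself had signals between 1.82 and 1.95 on the WT arrays and between -4.67 and -4.26 on the Nkx2-1cKO arrays, which is 1.24% of the WT level. The groups therefore separated as they are named, but the level goes against the labelled genotype, in which 1 intact allele would remain in the mutant samples. The names WT and Nkx2-1cKO are kept here for the groups, and the number of floxed alleles is not settled. The share of probes well above background lay between 71.1% and 79.5%. The arrays lay on 2 slides, each with 2 WT and 2 Nkx2-1cKO arrays, and the slide term passed the threshold for 14.2% of the tested probes, so values within each slide are given where they matter. WT replicate 1 stood apart at low signal. With the tested probes cut into 5 equal bins by mean signal, its median deviation from the other arrays in the dimmest bin was 1.18 on the log2 scale, against -0.41 to 0.22 for the other 7.

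SOX proteins bind the minor groove of DNA through an HMG box and often act beside partner factors, among them POU proteins. Group B1 members keep neural cells in the progenitor state, Sox21 of group B2 counters them, and group C members act in newly formed neurons. Group D members lack an activation domain of their own, and Sox6 is needed for the positioning and maturation of interneurons that leave the MGE.

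Sequence upstream of the transcript starts is shown for group D, the group that holds the gene with the largest change among the members. The sequences are the 250 bases before the start in RefSeq on the build GRCm38.p6, written 5′ to 3′ on the strand of the gene, which is the minus strand for all 5 windows. Capitals mark matches on either strand to the NK2-type homeodomain cores CACTTGA and CACTTAA and to the SOX hexamers ACAAAG and ACAATG. The 3 Sox6 windows are those of its 6 that hold an NK2 core, and Sox5 and Sox13 are shown as the other members of the group.
Sox6 chr7:116038745-116038994: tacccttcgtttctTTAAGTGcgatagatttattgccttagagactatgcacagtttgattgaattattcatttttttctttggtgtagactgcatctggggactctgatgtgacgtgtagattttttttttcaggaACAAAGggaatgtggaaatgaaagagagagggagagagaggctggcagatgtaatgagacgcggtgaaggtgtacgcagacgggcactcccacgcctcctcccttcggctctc
Sox6 chr7:116031048-116031297: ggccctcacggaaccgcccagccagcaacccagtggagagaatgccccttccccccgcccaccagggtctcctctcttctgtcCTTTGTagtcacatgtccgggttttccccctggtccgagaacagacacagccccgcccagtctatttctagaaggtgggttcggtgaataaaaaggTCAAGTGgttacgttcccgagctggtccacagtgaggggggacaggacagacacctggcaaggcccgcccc
Sox6 chr7:115846141-115846390: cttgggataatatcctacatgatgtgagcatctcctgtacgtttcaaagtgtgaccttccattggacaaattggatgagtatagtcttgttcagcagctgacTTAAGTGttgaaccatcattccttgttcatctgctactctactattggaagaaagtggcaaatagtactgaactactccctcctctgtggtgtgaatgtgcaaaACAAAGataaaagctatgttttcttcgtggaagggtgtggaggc
Sox5 chr6:143947107-143947356: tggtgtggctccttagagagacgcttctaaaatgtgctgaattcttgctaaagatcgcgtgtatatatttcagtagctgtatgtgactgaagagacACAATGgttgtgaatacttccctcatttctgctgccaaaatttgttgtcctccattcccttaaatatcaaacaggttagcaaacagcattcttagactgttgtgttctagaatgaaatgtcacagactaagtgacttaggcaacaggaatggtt
Sox13 chr1:133424213-133424462: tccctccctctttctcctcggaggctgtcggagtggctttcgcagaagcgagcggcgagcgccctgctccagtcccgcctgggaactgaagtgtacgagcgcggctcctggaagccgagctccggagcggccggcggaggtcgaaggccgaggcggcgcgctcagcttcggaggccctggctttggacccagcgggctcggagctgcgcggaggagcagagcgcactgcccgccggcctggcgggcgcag
The motifs were chosen after the array values were known, and 9 were searched over the 14 windows of the 9 genes. An NK2 core was found in 3 of the 6 Sox6 windows and in 0 of the 8 windows of the other members, while 4.67% of all 32851 RefSeq windows held one. A SOX hexamer was found in 5 of the 6 Sox6 windows and in 2 of the other 8, against 25.2% of all windows. The other motifs were TAATTA in 0 of the 14 windows and the octamer ATGCAAAT in the Sox12 window alone. Of all 32851 windows, 4.84% held TAATTA and 526 held the octamer. CAAGTG was found in 1 Sox6 window, where it overlaps CACTTGA, and TATAAA in 1 Sox6 window, against 11.6% and 12.4% of all windows. The E-box CANNTG, which covers CAAGTG, was found in all 6 Sox6 windows and 3 of the other 8, against 66.2% of all windows. These matches describe the letters of the windows and are not binding sites measured here. The share of G and C lay between 34% and 45.2% in the Sox6 windows, but for 1 at 60.8%. It was 39.6% for Sox5 and between 50.8% and 74.4% for the other members. Whether base composition accounts for the unequal counts was not tested, and the Sox6 windows all belong to 1 gene.

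Across the members, Sox6 fell on every probe and no other member passed the test in either direction. Of the 14 member probes, 4 were called lower and 0 higher (limma, adjusted p under 0.05), against 0.614% of 31280 tested probes called lower and 0.422% called higher. The groups did not overlap on 6 member probes, all of them lower, namely the 4 of Sox6, that of Sox1 and the brightest of Sox11. Over all tested probes, 4.11% were lower and 2.29% higher without overlap. At an unadjusted p under 0.05 (limma), 8 member probes passed. They were the 4 of Sox6, those of Sox1 and Sox2, and the brightest and second of Sox11, which went in opposite directions. The share of all tested probes at that level was not counted, so this number has no background beside it. By its brightest probe, the mean was lower in the Nkx2-1cKO for 7 genes and higher for Sox4 and Sox13. The median change over the 9 genes by brightest probe was -0.31 on the log2 scale. It was -0.04 over all tested probes, a set not limited to the brightest probe of each gene. The directions of Sox4, Sox11 and Sox12 rest on single arrays or probes, as given below.

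**Figure D1:**
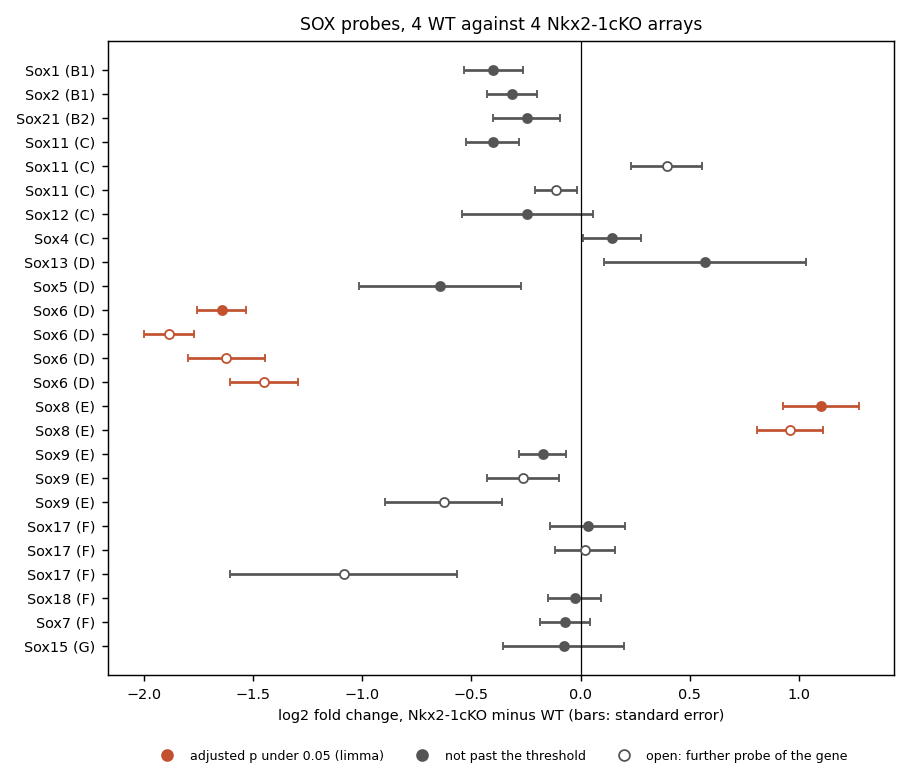
Log2 fold change, Nkx2-1cKO minus WT (x axis, bars show the standard error), for each tested SOX probe, with its group in brackets (y axis). Filled points are the brightest probe of a gene, open points its other probes, and red points have an adjusted p under 0.05 (limma, 4 arrays a group). The 4 Sox6 probes lie between -1.89 and -1.45, the 2 Sox8 probes at 0.96 and 1.10, and the 3 Sox11 probes between -0.40 and 0.39.

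Sox6 is a group D factor of migrating interneurons. Its brightest probe read 2.64, 2.39, 2.22 and 2.29 on the WT arrays and 0.58, 0.68, 0.89 and 0.82 on the Nkx2-1cKO arrays. The lowest WT array was above the highest Nkx2-1cKO array by more than the whole range of either group. The mean went from 2.39 ± 0.18 to 0.74 ± 0.14 (SD, n = 4 each), so that Sox6 fell by 1.64 on the log2 scale, to 32.0% of WT (limma, standard error 0.11, adjusted p = 8.4e-05). The second probe read 0.39, 0.06, 0.07 and 0.26 in WT and -1.82, -1.49, -1.80 and -1.65 in the Nkx2-1cKO, and fell by 1.89 (standard error 0.11, adjusted p = 3.7e-05, limma), to 27.1% of WT. On the 2 dimmer probes the groups were also apart. The third read -2.08, -2.80, -2.63 and -2.54 against -4.36, -4.12, -4.17 and -3.89 and fell by 1.62 (adjusted p = 0.0019, limma). The fourth read -2.48, -2.80, -3.09 and -2.80 against -4.31, -4.39, -4.19 and -4.07 and fell by 1.45 (adjusted p = 0.0018, limma). With normexp background correction these 2 dimmer probes fell by 1.05 and 0.87 and were still called (limma, adjusted p = 0.0018 and 0.0048). That setting also adds an offset of 50 and uses quantile normalization, so the parts of these in the smaller falls were not told apart. These falls were of similar size on both slides, with -1.68 on slide 1 and -1.60 on slide 2 for the brightest probe. All 4 probes passed the threshold with any single array left out, and the change of the brightest probe then ranged from -1.70 to -1.56. Within arrays, the 6 pairs of Sox6 probes overlapped between the groups, with differences in change of up to 0.44 (exact two-sided permutation test, smallest p = 0.0571).

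**Figure D2:**
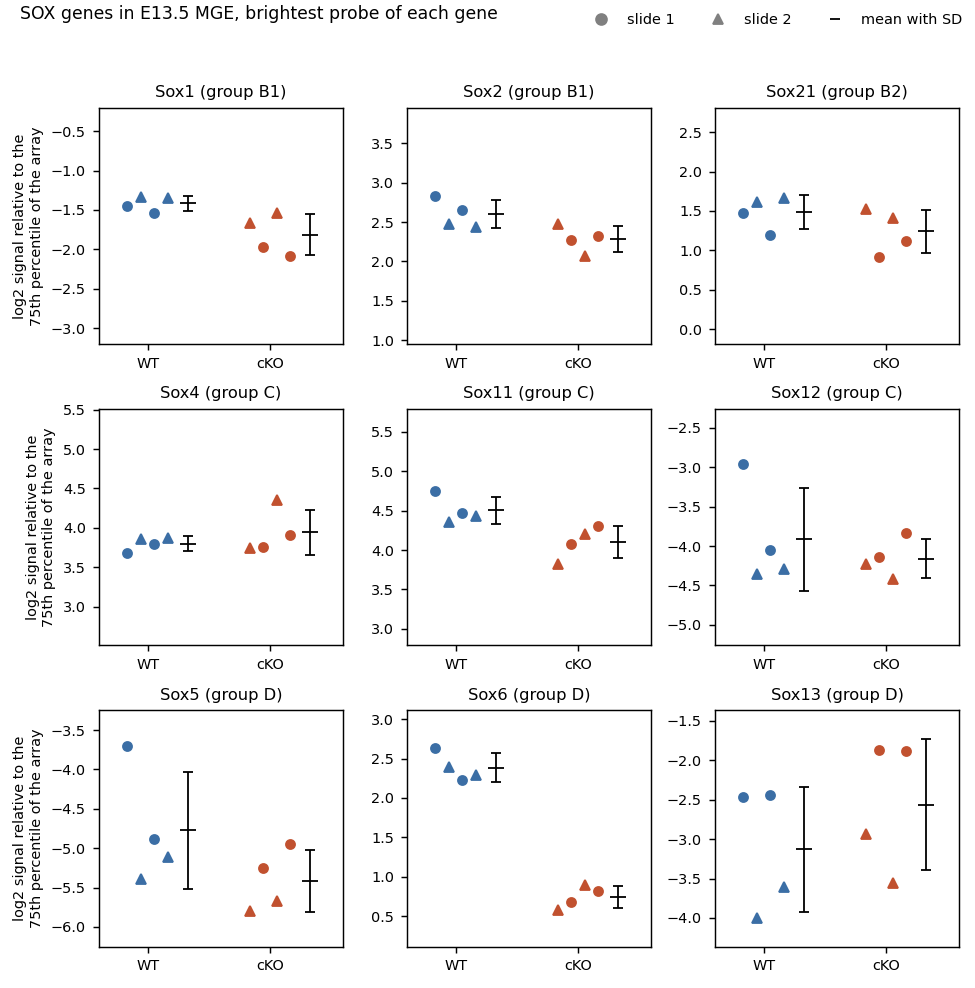
Log2 signal relative to the 75th percentile of the array (y axis, each panel spanning 3 log2 units) in 4 WT and 4 Nkx2-1cKO arrays for the brightest probe of each SOX gene. Circles are arrays of slide 1 and triangles of slide 2, and the black bar is the mean with its SD. For Sox6 the WT arrays lie between 2.22 and 2.64 and the Nkx2-1cKO arrays between 0.58 and 0.89, whereas for Sox13 the slides lie apart within both groups.

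The other group D members, Sox5 and Sox13, were not called. Sox5, which takes part in the timing of neuron subtype formation in the cortex, read -3.70, -5.39, -4.88 and -5.12 in WT and -5.79, -5.25, -5.67 and -4.95 in the Nkx2-1cKO. The groups overlapped, and WT replicate 1 was the highest array by more than 1 log2 unit. The change was -0.64 (standard error 0.37, adjusted p = 0.645, limma) and -0.28 without that replicate, on a probe of the dimmest bin. Sox13, which modulates T cell factor signalling, read -2.47, -4.00, -2.44 and -3.60 in WT and -2.93, -1.87, -3.56 and -1.88 in the Nkx2-1cKO. Its arrays separated by slide in both groups. The difference of slide 2 minus slide 1 was -1.36 (adjusted p = 0.00064, limma), and the change between groups was 0.57 (standard error 0.46, adjusted p = 0.696, limma), with 0.58 on slide 1 and 0.56 on slide 2. Its size moved with single arrays, from 0.28 without WT replicate 2 and 0.34 without Nkx2-1cKO replicate 2 or 4 to 0.90 without Nkx2-1cKO replicate 3, and was 0.96 with array weights. With slide as a block the adjusted p was 0.141 (limma).

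Whether the group D genes changed unequally was tested on differences within each array, which any scaling of a whole array leaves as they are. A shift limited to dim probes, as on WT replicate 1, is not removed in this way. Sox6 minus Sox13 lay between 4.67 and 6.40 on the WT arrays and between 2.56 and 4.45 on the Nkx2-1cKO arrays, so the groups did not overlap. Sox6 thus changed by -2.21 relative to Sox13 (p = 0.0286 by exact two-sided permutation, the lowest possible with 4 arrays against 4, and 0.1 after adjustment over the 7 pairs of genes compared). The change was -2.26 on slide 1 and -2.16 on slide 2. The permutations were not held within slides, although Sox13 differed between slides. Sox5 minus Sox6 changed by 1.00 (exact permutation p = 0.0857, adjusted 0.15) and Sox5 minus Sox13 by -1.21 (exact permutation p = 0.0571, adjusted 0.133), with overlap in both. For Sox5 minus Sox6 the overlap came from WT replicate 1, at -6.34. The other WT arrays lay between -7.78 and -7.11 and the Nkx2-1cKO arrays between -6.57 and -5.77. Without that replicate the change was 1.27, and with single arrays left out it ranged from 0.79 to 1.27. For Sox5 minus Sox13 the change was -1.39 on slide 1 and -1.04 on slide 2, and the overlap was between arrays of different slides. No pair of genes passed 0.05 after adjustment, which with 7 pairs needs 5 of them at the smallest p.

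Group B1 genes were lower in mean without passing the test. Sox1, a progenitor factor also kept in some ventral forebrain neurons, read -1.45, -1.33, -1.53 and -1.35 in WT and -1.66, -1.97, -1.54 and -2.09 in the Nkx2-1cKO. Every Nkx2-1cKO array was below every WT array, although the closest arrays read -1.54 and -1.53. The change was -0.40 (standard error 0.13, adjusted p = 0.391, limma; exact two-sided permutation p = 0.0286), with -0.54 on slide 1 and -0.26 on slide 2, and with slide as a block the adjusted p was 0.0807 (limma). Sox2, which maintains neural stem cells, read 2.83, 2.48, 2.65 and 2.43 in WT and 2.47, 2.27, 2.07 and 2.33 in the Nkx2-1cKO. Nkx2-1cKO replicate 1 lay above WT replicate 4, which is the extent of the overlap, and the change was -0.31 (standard error 0.11, adjusted p = 0.459, limma; exact two-sided permutation p = 0.0571). Within arrays, the change of Sox1 relative to Sox2 was -0.09 (exact permutation p = 0.771, adjusted 0.771). Sox21, the group B2 gene, read 1.48, 1.62, 1.19 and 1.67 in WT and 1.52, 0.92, 1.41 and 1.12 in the Nkx2-1cKO. These values overlapped, and the change was -0.25 (standard error 0.15, adjusted p = 0.657, limma), or -0.14 without Nkx2-1cKO replicate 2. Sox21 also differed between slides, by 0.38 (adjusted p = 0.0225, limma).

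Group C genes did not pass the test, and the probes of Sox11 did not move together. Sox4, a factor of early neuronal differentiation, read 3.67, 3.86, 3.79 and 3.87 in WT and 3.75, 3.75, 4.36 and 3.91 in the Nkx2-1cKO. Nkx2-1cKO replicates 3 and 4 were above all WT arrays and the others within the WT range, and the change was 0.14 (standard error 0.13, adjusted p = 0.726, limma). Without Nkx2-1cKO replicate 3 it was 0.0042, so the higher mean of Sox4 rests on that array. Sox12, the remaining group C gene, read -2.96, -4.36, -4.05 and -4.29 in WT and -4.23, -4.14, -4.42 and -3.84 in the Nkx2-1cKO. WT replicate 1 stood above the rest, and the change of -0.24 (standard error 0.30, adjusted p = 0.787, limma) was 0.07 without it.

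Sox11, which promotes neuronal gene expression in new neurons, had 3 probes. The brightest read 4.76, 4.36, 4.47 and 4.43 in WT and 3.82, 4.08, 4.20 and 4.30 in the Nkx2-1cKO, with every Nkx2-1cKO array below WT. Its change was -0.40 (standard error 0.12, adjusted p = 0.290, limma; exact two-sided permutation p = 0.0286). The second read 3.19, 2.80, 2.93 and 2.93 in WT and 2.97, 3.17, 3.72 and 3.57 in the Nkx2-1cKO. Here the mean was higher in the Nkx2-1cKO, by 0.39 (standard error 0.16, adjusted p = 0.535, limma), with overlap. The third read -0.34, -0.58, -0.47 and -0.60 against -0.76, -0.55, -0.56 and -0.56 and changed by -0.11 (adjusted p = 0.705, limma). The groups did not overlap on any of the 3 pairs of Sox11 probes, but these pairs share probes and are not independent. Apart from the Sox6 pairs, which overlapped, no pairs of probes of other genes were compared, so the share apart by chance is not known. The brightest minus the second lay between 1.50 and 1.56 on the WT arrays and between 0.49 and 0.91 on the Nkx2-1cKO arrays, a change of -0.80. The brightest minus the third changed by -0.29 and the second minus the third by 0.51 (by exact two-sided permutation all 3 had p = 0.0286, and 0.0857 after adjustment over 9 pairs of probes). The unadjusted p is the lowest possible with 4 arrays against 4, and no pair passed the threshold after adjustment. Whether the Sox11 probes changed unequally is thus not settled. Their mean changes differed in sign and none was called, so a single direction for Sox11 was not obtained. The probes cannot be assigned to parts of the transcript from the available data.

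**Figure D3:**
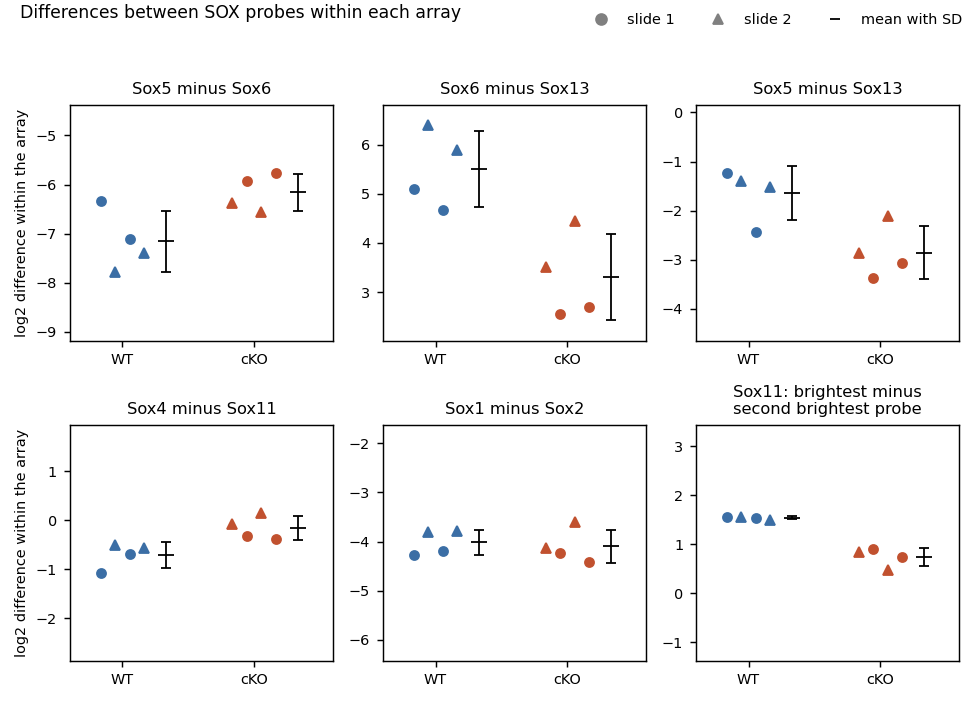
Difference in log2 signal between 2 SOX probes within each array (y axis, each panel spanning 4.8 log2 units) in 4 WT and 4 Nkx2-1cKO arrays, with circles for slide 1, triangles for slide 2 and a bar for the mean with its SD. The groups are apart for Sox6 minus Sox13, for Sox4 minus Sox11 and for the brightest minus the second Sox11 probe, and overlap for the rest. Only the change between groups can be read, since levels of different probes are not on one scale.

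Between group C genes, Sox4 minus the brightest Sox11 probe lay between -1.08 and -0.50 in WT and between -0.39 and 0.15 in the Nkx2-1cKO. The groups did not overlap, and Sox4 changed by 0.54 relative to Sox11 (exact two-sided permutation p = 0.0286, adjusted 0.1). Given the Sox11 probes above, this difference holds for that probe of Sox11. Sox4 minus Sox12 changed by 0.39 (exact permutation p = 0.514, adjusted 0.633) and Sox11 minus Sox12 by -0.16 (exact permutation p = 0.543, adjusted 0.633).

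Of the remaining SOX genes, 8 of 10 were matched on the array and 6 of these had tested probes, 11 in all. Sox8, a group E factor of glial precursors, was the one called, and it rose on both probes. The brighter lay between -1.76 and -0.91 on the WT arrays and between -0.27 and -0.05 on the Nkx2-1cKO arrays, and the other between -1.95 and -1.64 against -1.19 to -0.50. On both, the groups did not overlap. The changes were 1.10 (standard error 0.17, adjusted p = 0.0153, limma) and 0.96 (standard error 0.15, adjusted p = 0.0152, limma). The call of the brighter was lost without WT replicate 3 or without Nkx2-1cKO replicate 1, 3 or 4 (limma, adjusted p up to 0.0654), and that of the other without WT replicate 2 or 4 (limma, adjusted p up to 0.0596). Sox9, which like Sox8 belongs to group E and acts in glial specification, had changes of -0.17, -0.26 and -0.63 on 3 probes (adjusted p between 0.557 and 0.657, limma). Sox7, Sox17 and Sox18, endothelial factors of group F, changed by -0.07, 0.03 and -0.03 on their brightest probes, and Sox15 by -0.08, none of them called. Another Sox17 probe, 1 of 3, stood clearly over background on 4 arrays only, 3 of them WT, and had a change of -1.09 (adjusted p = 0.602, limma), which was -0.67 without WT replicate 1, -0.52 with quantile normalization and -0.077 with normexp background correction, so its size is not settled. Sry and Sox30 had no tested probe, and no probe was matched to Sox10 or Sox14.

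The genes whose profile over the 8 arrays was nearest to Sox6 were measured as the root mean square difference from the brightest Sox6 probe, each profile set to its WT mean. Over 14434 genes the median was 1.19. The nearest were Pdgfra, a receptor of oligodendrocyte precursors (0.144), Sema3e, a secreted guidance cue (0.169), Timmdc1, a mitochondrial assembly factor (0.203), Smoc1, a secreted matrix protein (0.213), and Etv1, an ETS transcription factor (0.226). Their changes were -1.76, -1.63, -1.75, -1.58 and -1.51. This likeness is a description over 8 arrays.

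The lists named for related roles were set beside the SOX genes. They were chosen with earlier results of these data known, so their counts are descriptions and not tests. Over all tested probes, 0.614% were called lower and 0.422% higher (limma, adjusted p under 0.05). Of 6 POU factors, which pair with SOX proteins on DNA, 1 rose and none fell. This was Pou3f1, with a change of 0.74 (adjusted p = 0.0455, limma), and the median of the list was -0.06. This call was lost in 6 of the 8 fits with 1 array left out, those without WT replicate 1, 3 or 4 or Nkx2-1cKO replicate 1, 3 or 4 (limma, adjusted p up to 0.158). None of 13 neural progenitor genes was called, with a median of 0.05. Of 15 neuron differentiation genes, 1 rose, Nefl of the neurofilament (0.85, adjusted p = 0.0145, limma), with a median of 0.02. Nefl was not called without WT replicate 3 or without Nkx2-1cKO replicate 1 or 4 (limma, adjusted p up to 0.0633). Of 18 MGE-derived neuron genes, a list that includes the targeted gene Nkx2-1, 13 were called lower and none higher, with a median of -1.18. The largest falls were those of Nkx2-1, Lhx6, Lhx8 and Npy with -6.34, -4.20, -3.67 and -3.53. Of these 13 calls, 10 held with any single array left out, and Satb1, Zeb2 and Erbb4 were lost in 2, 4 and 6 of the 8 fits. Lhx6, an MGE transcription factor, was at 5.43% of its WT level (standard error 0.13 of the log2 change, adjusted p = 5.0e-07, limma). Of 16 genes of the lateral and caudal eminences, 7 rose and none fell, with a median of 0.47, led by Rarb (1.51), Zfp503 (1.39), Ebf1 (1.37) and Isl1 (1.26). These 4 were called with any single array left out. The other 3 depended on single arrays, with Meis2 and Foxp2 each called in 1 of the 8 fits and Tle4 in 3 (limma, adjusted p up to 0.16, 0.146 and 0.0945). Of 8 oligodendrocyte precursor genes, 3 fell and 1 rose, namely Gpr17 (-3.61), Pdgfra (-1.76), Olig1 (-1.63) and Sox8 (1.10), with a median of -0.59.

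**Figure D4:**
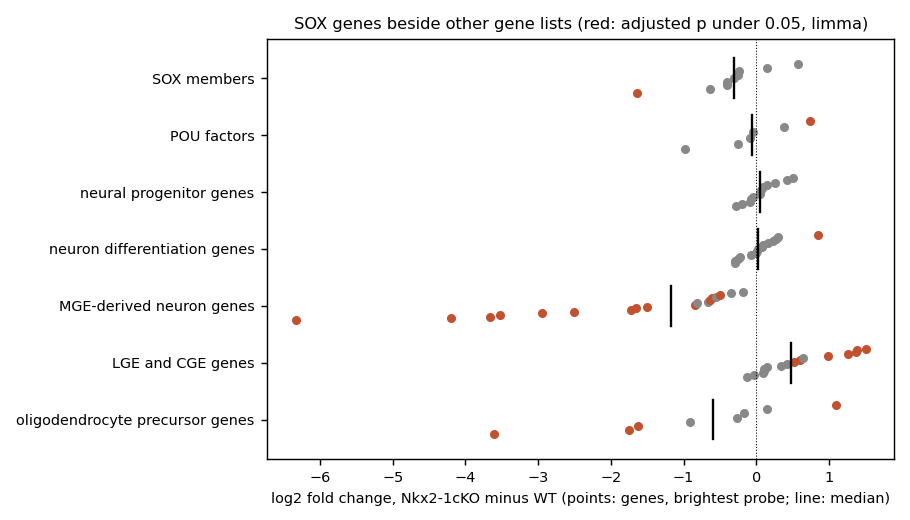
Log2 fold change, Nkx2-1cKO minus WT (x axis), of the brightest probe of each gene, for the 9 SOX members and 6 other lists (y axis). Red points have an adjusted p under 0.05 (limma, 4 arrays a group) and black lines are medians. The SOX median is -0.31. The outermost medians are those of the MGE-derived neuron list at -1.18 and the list of the lateral and caudal eminences at 0.47.

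Markers of tissue and cell types were compared between the groups, which cannot show material that both groups share. All tested pallial, endothelial, erythroid and microglial markers, and 7 of 9 mesenchymal ones, were well above background on all 8 arrays. Of 12 subpallial markers, Nkx2-1, Lhx6 and Lhx8 fell and none rose, and none of the pallial, endothelial, mesenchymal, erythroid or microglial lists, each with 8 or 9 genes, held a called gene. The summed signal of the mesenchymal markers was 8.28 times the 75th percentile on WT replicate 4, between 1.76 and 2.37 on the other WT arrays and between 1.79 and 2.42 on the Nkx2-1cKO arrays. Sox6 fell by a similar amount without WT replicate 4, as the range with single arrays left out shows, and the part of these cells in the other values was not tested.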

How the data were processed

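Gene expression in E13.5 MGE was measured on Agilent whole mouse genome arrays, 1 sample per array. The authors deposited the Feature Extraction output (version 10.1 per the labels, 10.7.3.1 per the file headers), whose intensity is background-subtracted and detrended within the array but not scaled between arrays. Control and outlier spots were left out, log2 was taken relative to each array's 75th percentile, and spots of a probe were averaged. Accessions matched 24836 of 41174 probes to symbols of a RefSeq table on GRCm38.p6. Probes had to be well above background on at least 4 arrays, and the 31280 that were so were compared with limma 3.58.1 in R 4.3.3 (lmFit, eBayes with a trend, Benjamini-Hochberg, threshold 0.05). The procedure was tested on simulated data. Single values were compared by exact two-sided permutation tests. A gene's brightest probe has the highest mean over the 8 arrays. All SOX genes, Nkx2-1, Lhx6, the 5 genes most like Sox6, and up to 4 called genes with the largest change per list are named. The members and lists were chosen with earlier results of these data known, and the motifs after the values were seen. Deviations of arrays with the same replicate number had correlations from -0.481 to -0.194. These arrays lay on opposite slides, so the correlations cannot show whether the samples were paired. The alternatives were other scalings, normexp with an offset of 50 on the median signal followed by quantile normalization, and no filter. Further ones were slide or replicate number as a block, no trend, array weights, averaging the probes of a gene and each array left out.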

Additional observations from a re-analysis of the deposited data

Results flagged for a closer look

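Among the 50 groups of 4 arrays over the tested SOX probes, 3 held 1 array far from the other 3 (gap to the nearest array against the range of the group, Dixon's test), and chance gives about 2.5. On the third probe of Sox11, Nkx2-1cKO replicate 1 read -0.76 and the others between -0.56 and -0.55. On the brightest probe of Sox9, WT replicate 1 read 1.39 and the others between 1.08 and 1.11. For Sox18, WT replicate 4 read -0.45 and the others between -0.90 and -0.85. None of these probes was called.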

How the results depend on the processing

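Centring on the median moved the median change of all probes by 0.12, from -0.04 to 0.08. The 4 Sox6 probes were called lower under every alternative but 1. With replicate number as a block, 2 of them were called and the 2 dimmer ones had an adjusted p of 0.059 (limma). Whether the replicate numbers mark paired samples is not known. All probes called lower numbered 192, and 115 with median centring, 65 with the replicate block and 289 with array weights. Those called higher numbered 132, and 209 with slide as a block, 8 with the replicate block and 64 to 120 with 1 array left out. Genes called over the lists numbered 26, and 16 with median centring and 13 with the replicate block. The cause of these differences was not tested. Sizes without a call also moved by over 1.5 times. Sox4 was 0.069 with quantile normalization, 0.067 with normexp and 0.26 with median centring, Sox5 was -0.38 with quantile normalization, -0.18 with normexp and -0.28 with array weights, Sox2 was -0.19 and Sox21 -0.13 with median centring, and the mean of the Sox11 probes was -0.040. Sox8 was not called with median centring (1.22, adjusted p = 0.064, limma), nor with the replicate block.

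Changes near 0 turned sign. The third Sox11 probe became 0.0079 and Sox7 0.050 with median centring. Sox12 became 0.058 with array weights and ranged from -0.39 to 0.074 with 1 array left out. Sox15 became 0.042 with quantile normalization, 0.042 with median centring, 0.044 with normexp and 0.11 with array weights, with a range of -0.24 to 0.12. The brightest Sox17 probe became -0.065 with array weights and -0.34 as the mean of probes, with a range of -0.062 to 0.17, and the second ranged from -0.062 to 0.11. Sox18 became 0.092 with median centring and ranged from -0.074 to 0.080. Sox1 relative to Sox2 ranged from -0.25 to 0.017, a range added after seeing the data, and Sox11 relative to Sox12 became 0.20 with the mean of probes. Dim probes such as Sox5 and Sox12 limit what these arrays can show.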
